A study of Homo sapiens with 42 samples.

Results

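The CDK inhibitor genes are 8 human genes whose products restrain or oppose cyclin-dependent kinases. They were taken by symbol (CDKN1A, CDKN1B, CDKN1C, CDKN2A, CDKN2B, CDKN2C, CDKN2D and CDKN3) from the 58721 genes counted, and all 8 passed the filter on low counts in each of the 4 count tables. RNA-seq was done on 42 libraries in 15 groups to study MS41, a degrader of ENL, the acetyl-histone reader encoded by MLLT1 on which leukaemias with an MLL fusion depend. MV4;11 is a human myeloid leukaemia line and SEMK2 a human B-cell precursor leukaemia line, and both carry MLL-AF4. MV4;11 cells of wild-type genotype received DMSO or 100 nM of MS41, MS41N or PFI-6 for 6 or 24 h, with 3 libraries in each of the 8 groups. The labels do not state the role of MS41N, and the treatment protocol writes MS47N where the titles write MS41N, so the dose of the MS41N libraries rests on reading both names as 1 compound. PFI-6 is a small molecule that blocks the YEATS domain, the acetyl-lysine pocket of ENL and of its paralog AF9. SEMK2 cells received DMSO or MS41 at 100 nM (3 libraries each); which of both times applied is not given. MV4;11 cells with a control guide (labelled wild type), ENL guide 1 or ENL guide 2 (labelled ENL knockout) gave 2 libraries each, and no label says whether they were clones or pools or how long after editing they were taken. From the mouse experiment came MV4;11 cells after vehicle (3 libraries) or MS41 (3 libraries); dose, time, mouse strain and age are not in the labels, and these libraries were made with a low-input kit.

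CDK inhibitors fall into families. The CIP/KIP proteins p21 (CDKN1A), p27 (CDKN1B) and p57 (CDKN1C) bind cyclin-CDK complexes, chiefly those of CDK2, and hold cells back from entering S phase. The INK4 proteins p16 (CDKN2A), p15 (CDKN2B), p18 (CDKN2C) and p19 (CDKN2D) bind CDK4 and CDK6 and keep cyclin D from pairing with them, so that RB stays unphosphorylated and E2F targets stay off. CDKN3 encodes a phosphatase that removes the activating phosphate of CDK2, and its own transcript is cell-cycle regulated. CDKN1A is the classical p53 target, CDKN1B and CDKN1C are known targets of FOXO factors in many cells, and p27 is controlled largely by SKP2-dependent protein turnover, which RNA-seq does not measure. CDKN2A also encodes p14ARF from an alternative first exon, and gene counts do not separate p16 from p14ARF transcripts.

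The targeted gene was examined first. With the control guide MLLT1 was at 223 and 250 CPM (the count scaled to a common library size), with guide 1 at 181 and 190 and with guide 2 at 123 and 127, a log2 fold change of -0.35 and -0.92 (edgeR adjusted p = 0.012 and 1.8e-05), so transcript remained under both guides. MS41 lowers ENL as protein, and MLLT1 RNA was at -0.16 after 6 h and -0.25 after 24 h (adjusted p = 6.5e-05 and 2.5e-09). Libraries held between 77.22 M and 230.6 M counts (M, mega). Replicate 3 of SEMK2 DMSO stood apart: its counts departed from its 2 replicates by a chi-square of 58.5 and 65.2 per degree of freedom, against 12.1 between those 2. No library was a copy of another of its group. The summed level of 9 myeloid markers ran from 747 to 851 CPM over all MV4;11 libraries of 6 h, from 1730 to 1800 in those of DMSO, MS41N and PFI-6 at 24 h, and from 2940 to 3120 with MS41 at 24 h. It ran from 1050 to 1270 with the control guide and from 2060 to 2400 with the ENL guides. The 8 B-lineage markers summed to 1770 to 1870 CPM in SEMK2 and to at most 4.54 in MV4;11. A sum follows its most abundant genes, and 2 of the 9 myeloid markers were below 1 CPM in every MV4;11 group. With MS41 at 6 h, 2 were called higher and 3 lower (26% of all genes called). At 24 h, 6 were higher and 1 lower (44.3%). From 6 to 24 h in DMSO, 4 were higher and 1 lower (30.2%), with a median of 0.13. With the ENL guides 5 were higher and 0 lower (10.3%). In cells from mice the sum was 7130 to 8430 CPM with vehicle and 6820 to 8090 with MS41. The part of the myeloid sums in the results below was not tested. In bulk RNA, fewer cells of a kind and less RNA per cell cannot be told apart.

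The results below turn on CDKN1B and CDKN1A. CDKN1B (ENSG00000111276) lies on chromosome 12, 12715058 to 12722371, plus strand, and CDKN1A (ENSG00000124762) on chromosome 6, 36676460 to 36687339, plus strand (GRCh38, GENCODE 29). The stretch upstream of the RefSeq start of CDKN1A is shown as far as it lies outside any annotated UTR (GRCh38.p14, plus strand, chr6:36678464-36678657). CDKN1A is the member called higher both with MS41 and with the ENL guides in MV4;11 culture. Its GC boxes (GGGCGG, searched on both strands) are in capitals.
CDKN1A: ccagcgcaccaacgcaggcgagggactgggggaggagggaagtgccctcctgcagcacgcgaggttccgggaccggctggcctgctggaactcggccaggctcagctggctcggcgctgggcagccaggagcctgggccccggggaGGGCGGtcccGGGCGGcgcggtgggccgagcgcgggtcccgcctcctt
The printed part holds 2 GC boxes and the whole window of 250 bases before the RefSeq start holds 4, some of them overlapping. The window of CDKN1B (chr12:12717118-12717367) lies almost wholly in an annotated UTR (244 of 250 bases) and is therefore not printed; it holds 1 GC box and 2 CCAAT boxes (CCAAT), against none of the latter in the window of CDKN1A. Neither window holds an E-box (CACGTG), a CHR element (TTTGAA) or the forkhead motif GTAAACA. Of 35114 windows of the same length in the RefSeq table, 42.6% hold a GC box, 32.0% a CCAAT box, 6.35% an E-box, 13.3% a CHR element and 2.98% the forkhead motif. These matches describe the letters only.

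In untreated MV4;11 cells CDKN1B was the most abundant transcript of the family per length of exon. On that scale (CPM per kb of annotated exon) it averaged 54.6 in DMSO at 6 h. CDKN3 followed at 33, then CDKN1A at 14.9. CDKN2A (9.73) and CDKN2C (9.33) came next and did not differ beyond the spread of their libraries. CDKN2D stood at 4.28 and CDKN2B at 0.584, on 291 to 367 counts per library. CDKN1C was lowest at 0.208, on 51 to 62 counts. After 24 h of MS41 the order at the top had changed: CDKN3 averaged 24.2 CPM per kb and CDKN1B 23.2, and their libraries overlapped, with CDKN1A next at 16.5.

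The same genes stood at other levels in the other tables, which were counted separately and are set side by side without a test. CDKN1A was at 11.3 CPM per kb in MV4;11 DMSO at 24 h but at 76.3 with the control guide, where it and not CDKN1B (33.9) was the top member, and at 23 in the vehicle libraries from mice. In SEMK2 DMSO, CDKN1B (52.8), CDKN2A (45.9), CDKN1A (42.3), CDKN2C (39.2) and CDKN3 (36.8) were close to each other. CDKN2C, the p18 gene, was thus at a level per length there that no MV4;11 library reached. CDKN2B, the p15 gene, was at 6.25 CPM per kb in the vehicle libraries and between 0.476 and 0.673 in the control groups of every culture table. CDKN1C, the p57 gene, went from 0.065 in SEMK2 to 1.02 in the vehicle libraries, on 10 to 37 counts per SEMK2 DMSO library.

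**Figure D1:**
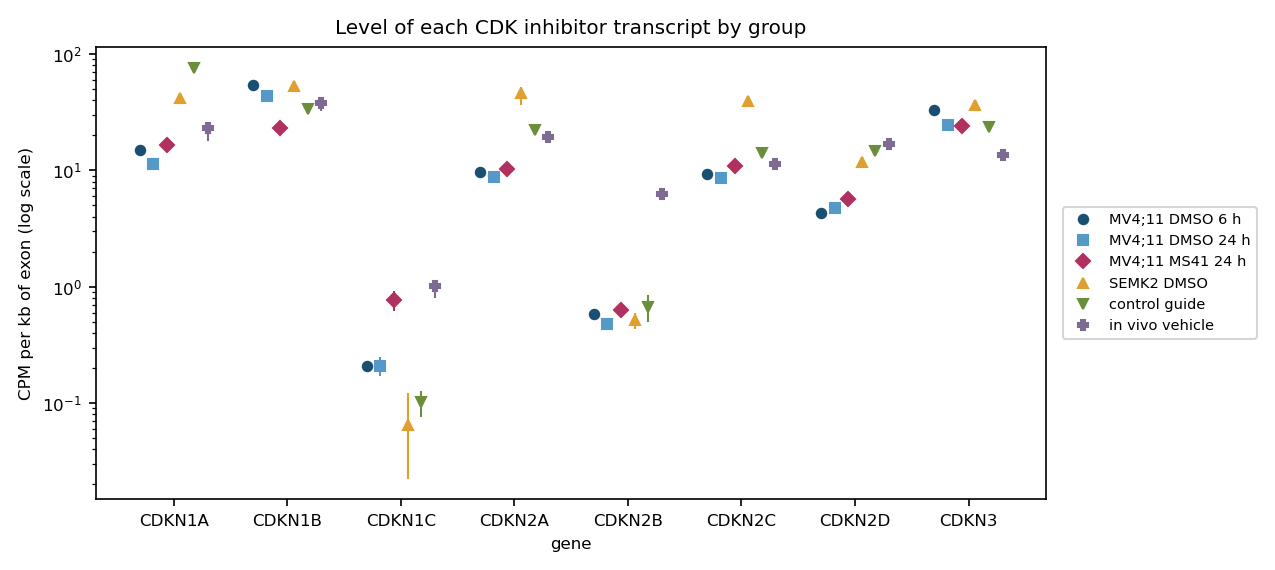
Mean level of each CDK inhibitor transcript (CPM per kb of exon, log axis) in 6 groups; vertical lines span the lowest to the highest library (n = 3, control guide n = 2). CDKN1B is the top symbol in MV4;11 DMSO at 6 h (54.6) and CDKN1A in the control guide (76.3), and CDKN2B stands higher in the vehicle libraries (6.25) than in the culture groups shown.

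CDKN1B, the p27 gene, was the member with the clearest loss after ENL degradation. Its level in MV4;11 was 141, 147 and 146 CPM in DMSO at 6 h and 61, 63.8 and 58.6 CPM with MS41. At 24 h it was 119, 117 and 114 CPM in DMSO and 64.9, 60.8 and 59 CPM with MS41. No MS41 library came near a DMSO library at either time, and both MS41 groups sat at the same level of about 61 CPM (means 61.1 and 61.6). The log2 fold change was -1.25 at 6 h (SE 0.0313, adjusted p = 7.7e-32) and -0.93 at 24 h (SE 0.0312, adjusted p = 5.9e-28), which leaves 0.421 and 0.526 of the control level. The fall at 6 h ranked 180 among the 22711 genes tested, counted from the strongest fall.

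CDKN1A, the p21 gene, moved the other way, with a larger difference at 24 h against a lower DMSO level. Its libraries read 39.7, 35.5 and 36.7 CPM in DMSO at 6 h against 43.6, 41.8 and 41.5 CPM with MS41, and 27.4, 29.1 and 28.5 CPM in DMSO at 24 h against 40.4, 43.1 and 41 CPM with MS41. The groups did not overlap at either time. That alone is a weak criterion: CDKN1A with MS41N at 6 h (34.5 to 35.4 CPM) also lay apart from DMSO, on the lower side, and was not called. The log2 fold change was 0.18 at 6 h (SE 0.0419, adjusted p = 0.00072) and 0.55 at 24 h (SE 0.0425, adjusted p = 3.2e-15). The mean with MS41 was close at both times (42.3 and 41.5 CPM), while that of DMSO was lower at 24 h (28.3 against 37.3 CPM).

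CDKN1C, the p57 gene, showed the steepest relative rise from the lowest level. DMSO libraries held 0.37 to 0.423 CPM at 6 h and 0.332 to 0.486 CPM at 24 h, on 40 to 62 counts each. MS41 libraries held 0.822, 0.97 and 0.954 CPM at 6 h and 1.52, 1.2 and 1.77 CPM at 24 h, all above every DMSO library. The log2 fold change was 1.18 at 6 h (SE 0.246, adjusted p = 0.00018) and 1.89 at 24 h (SE 0.246, adjusted p = 8.2e-09). Even so, CDKN1C stayed at 0.771 CPM per kb, far under CDKN1B in the same cells.

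Of the INK4 genes, only CDKN2C passed the test at 6 h and all 4 did at 24 h, each with a small rise. CDKN2C, the p18 gene, read 29.1, 28.6 and 27.7 CPM in DMSO at 24 h and 35.5, 39.4 and 34 CPM with MS41, without overlap. Its log2 fold change was 0.16 at 6 h (adjusted p = 0.0069) and 0.35 at 24 h (SE 0.0474, adjusted p = 2e-08). At 6 h the call was lost without DMSO replicate 3 (adjusted p = 0.053) or MS41 replicate 1 (adjusted p = 0.083).

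CDKN2A, the gene of p16 and p14ARF, was level at 6 h (31.4 against 30.7 CPM, log2 fold change 0.03, 95% interval -0.08 to 0.14). At 24 h it read 27.3, 25.2 and 30.4 CPM in DMSO and 30.7, 33.1 and 33.1 CPM with MS41, so that the lowest treated library stood just above the highest control (log2 fold change 0.22, adjusted p = 0.00038). CDKN2A shares 341 exon bases (10.8% of its exons) with the antisense gene CDKN2B-AS1, and the strand setting of the counting is not given in the sources used here. CDKN2B-AS1 itself averaged 1.47 CPM in DMSO and 2.8 CPM with MS41 at 24 h; its part in the CDKN2A reading was not tested.

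CDKN2B, the p15 gene, read 1.83 to 2 CPM in DMSO and 2.91, 2.45 and 2.27 CPM with MS41 at 24 h (log2 fold change 0.41, SE 0.13, adjusted p = 0.0088). Without MS41 replicate 1 it was at 0.30 and not called (adjusted p = 0.099). CDKN2D, the p19 gene, read 6.4, 7.75 and 7.41 CPM in DMSO and 8.76, 8.76 and 8.01 CPM with MS41 (0.24, SE 0.0815, adjusted p = 0.012). Its call ended without DMSO replicate 1 (adjusted p = 0.14), MS41 replicate 1 (adjusted p = 0.054) or MS41 replicate 2 (adjusted p = 0.05). At 6 h, CDKN2B was at 0.20 (95% interval -0.05 to 0.46) and CDKN2D at 0.11 (-0.06 to 0.28), and neither was called.

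CDKN3, the CDK2 phosphatase gene, was the member not called at either time. It averaged 51.9 CPM with MS41 and 53.5 CPM in DMSO at 6 h (log2 fold change -0.04, 95% interval -0.12 to 0.03), and 39.3 and 40 CPM at 24 h (-0.02, -0.10 to 0.05). A change of more than 0.12 on the log2 scale lies outside both intervals. Against PFI-6 at 24 h it was at -0.08 (adjusted p = 0.074), and DESeq2 called that difference (-0.09, adjusted p = 0.038), as did edgeR with RLE factors (adjusted p = 0.049), with no filter on low counts (adjusted p = 0.045) and without MS41 24 h replicate 2 (-0.13, adjusted p = 0.0084), 4 of 13 alternatives in all.

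Counted together, 4 of the 8 members were called with MS41 at 6 h (3 higher, 1 lower), where 26% of all genes were called (12.2% higher, 13.8% lower), and 7 of 8 at 24 h (6 higher, 1 lower), where 44.3% were (21.4% higher, 22.9% lower). The median log2 fold change of the members was 0.14 and 0.29, and that of all genes 0.02 at both times. CDKN1B was the lone member to fall.

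**Figure D2:**
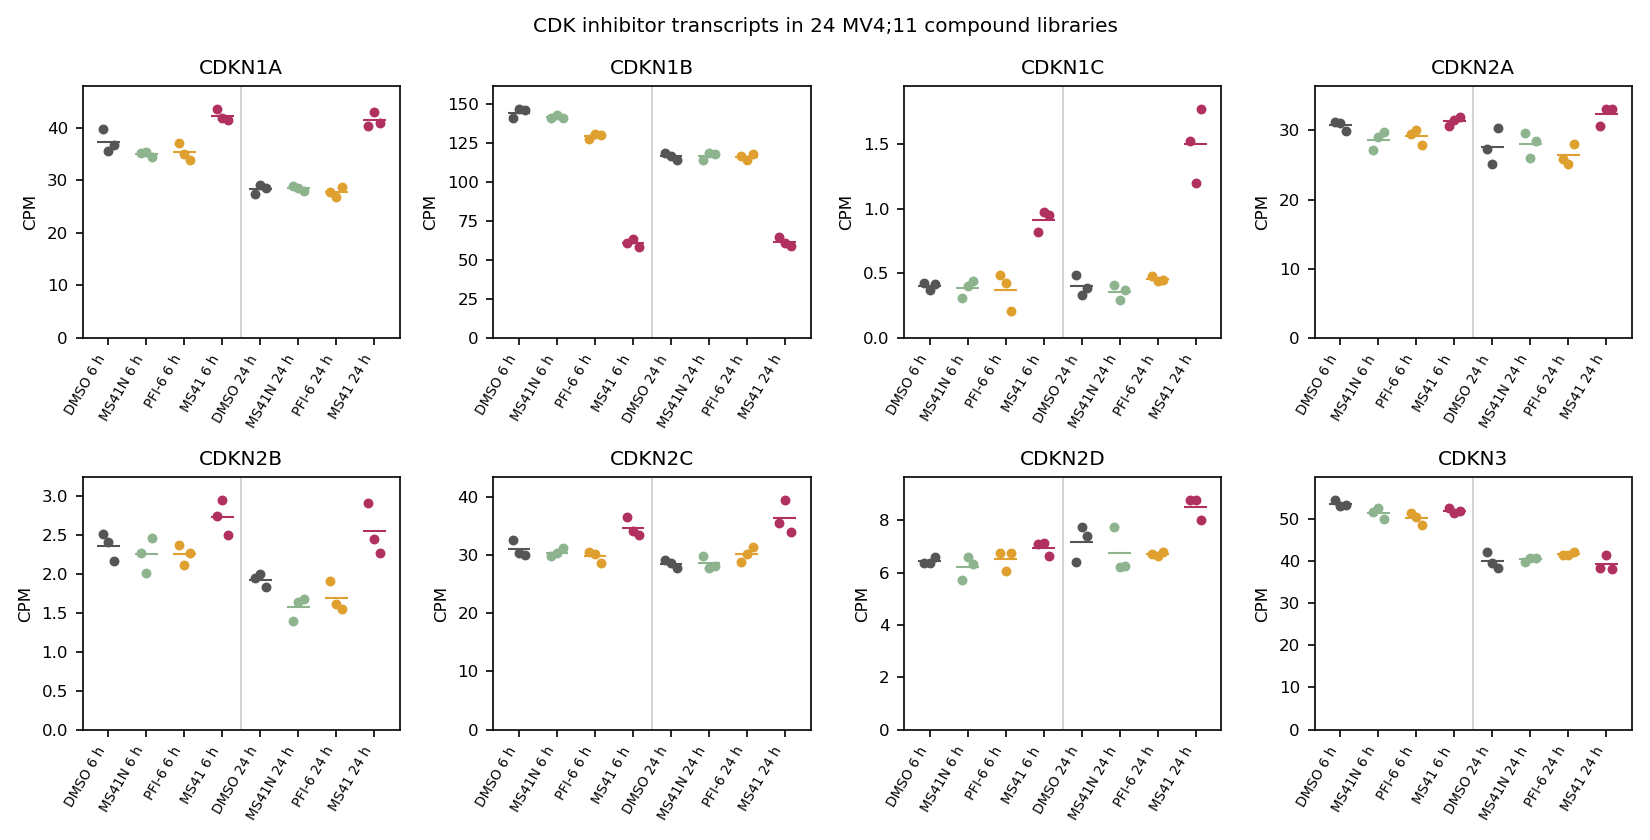
CPM of each CDK inhibitor gene in the 24 MV4;11 compound libraries (points) with the group mean (line, n = 3); groups of 6 h are left of the grey line and groups of 24 h right of it. MS41 libraries of CDKN1B lie between 58.6 and 64.9 CPM, below every other library, while those of CDKN1A at 24 h lie between 40.4 and 43.1 CPM, above the other libraries of that time.

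The other compounds, given at the same dose and times, left the family almost as it was. With PFI-6 at 6 h, where 2.05% of all genes were called, CDKN1B was the 1 member called. It read 128, 131 and 130 CPM, below all 3 DMSO libraries, a log2 fold change of -0.16 (SE 0.0303, 95% interval -0.22 to -0.10, adjusted p = 0.0023). At 24 h CDKN1B with PFI-6 was at 116 CPM against 117 in DMSO (-0.01, 95% interval -0.07 to 0.05), and 0 of 8 members were called, where 12.4% of all genes were (0 of 8 also had an unadjusted p under 0.05). With MS41N 0 of 8 were called at 6 h (0.321% of all genes) and 0 of 8 at 24 h (0.0352%), with 1 member under an unadjusted 0.05 each time, and DESeq2 called 0 of 8 in all 3 of these comparisons.

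Set directly against each other, MS41 and PFI-6 differed in CDKN1B by -1.09 at 6 h (95% interval -1.15 to -1.03, adjusted p = 2.3e-29) and in CDKN1A by 0.26 (0.17 to 0.34, adjusted p = 5.4e-06). In that comparison 4 of 8 members were called at 6 h (19.5% of all genes) and 7 of 8 at 24 h (42.3%). MS41 differed from MS41N in the same way, with CDKN1B at -1.21 at 6 h (95% interval -1.27 to -1.15), 4 of 8 members called (21.8% of all genes) and 7 of 8 at 24 h (42.4%). CDKN2B was higher with MS41 than with MS41N at 24 h by 1.63-fold (adjusted p = 1.6e-05). PFI-6 and MS41N did not differ in any member by edgeR (0 of 8 called at 6 h, 0.0132% of all genes, and 0 of 8 at 24 h, 0.106%; 1 and 0 members had an unadjusted p under 0.05, and DESeq2 called 0 at both). For CDKN1B at 6 h the interval of that difference ran from -0.18 to -0.06 on the log2 scale (adjusted p = 0.21). These comparisons share libraries, DMSO or MS41, and are therefore not independent of each other.

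**Figure D3:**
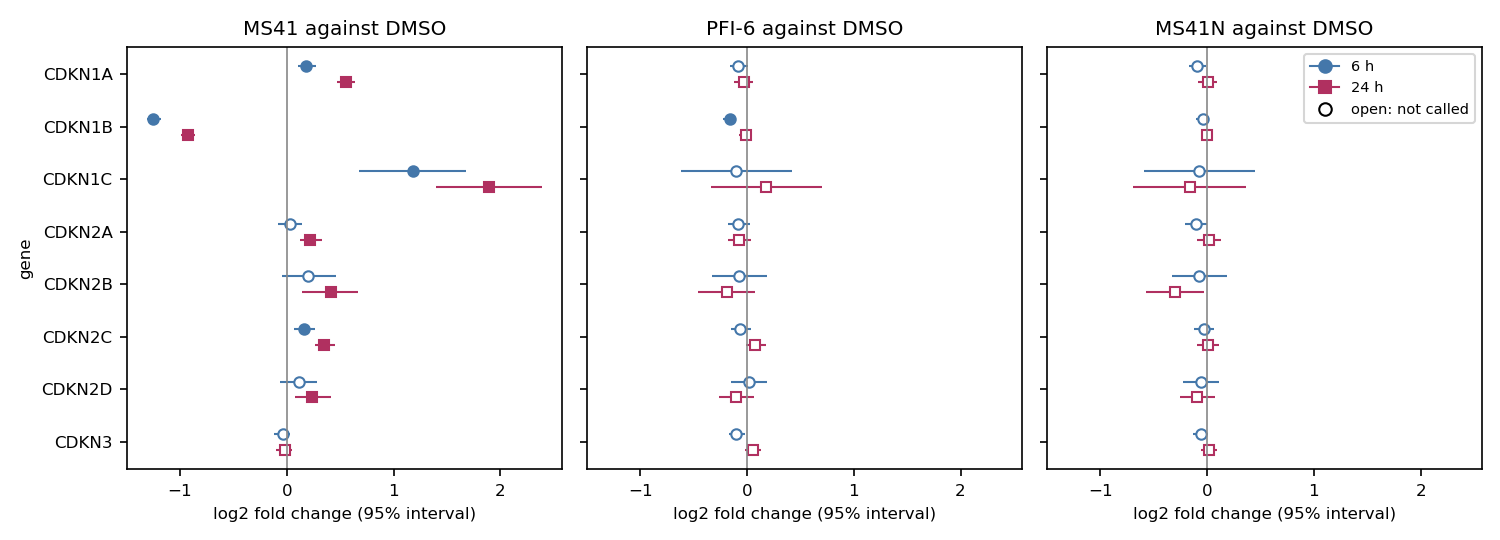
log2 fold change of each CDK inhibitor gene against DMSO of the same time, with 95% intervals, for 3 compounds at 100 nM in MV4;11 (circles 6 h, squares 24 h; filled where called). MS41 places CDKN1B at -1.25 and -0.93 and CDKN1C at 1.18 and 1.89, while PFI-6 has 1 filled symbol, CDKN1B at -0.16, and MS41N none.

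DMSO libraries of 24 h differed from those of 6 h as well. Time in culture cannot be told apart here from anything else that goes with the time label. From 6 to 24 h in DMSO, 5 of 8 members were called, all lower, where 30.2% of all genes were called (13.5% lower). CDKN3 fell by 0.42 on the log2 scale, CDKN1A by 0.40, CDKN1B by 0.31, CDKN2A by 0.15 and CDKN2C by 0.12. The calls of CDKN2A and of CDKN2C each ended when any of 4 of the 6 libraries was left out. The effect of MS41 itself differed between the times for 4 of 8 members, all toward higher values (26.4% of all genes, 11.9% toward higher). For CDKN1A the difference of the effects was 0.37 (SE 0.0596, adjusted p = 2.5e-06), a larger rise at 24 h. For CDKN1B it was 0.32 (SE 0.0438, adjusted p = 8.6e-08), a smaller fall at 24 h. In both cases the DMSO level dropped between the times while the MS41 level stayed (CDKN1B 145 to 117 CPM against 61.1 to 61.6 CPM). CDKN2A (0.19, adjusted p = 0.047) and CDKN2C (0.19, adjusted p = 0.03) were close to the threshold and each lost its call without any of several libraries. CDKN1C was at 0.71 (95% interval 0.02 to 1.41, adjusted p = 0.14). For PFI-6, 0 of 8 differed between the times by edgeR (0.119% of all genes; 3 of 8 had an unadjusted p under 0.05); DESeq2 called CDKN1B (0.16, adjusted p = 0.048).

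In SEMK2 the fall of CDKN1B was there and the rise of CDKN1A was not. CDKN1B read 138, 144 and 139 CPM in DMSO and 102, 104 and 104 CPM with MS41, without overlap (log2 fold change -0.44, SE 0.0363, adjusted p = 2.1e-05). It was the 1 member of 8 called, where 1.36% of all genes were. CDKN1A read 109, 111 and 98.1 CPM in DMSO and 96.3, 99.4 and 93.1 CPM with MS41, with overlap at the library of DMSO replicate 3 (-0.14, 95% interval -0.25 to -0.03, adjusted p = 0.23). Without that replicate, which stood apart, 5 of 8 members were called, all lower, where 2986 of 22150 genes tested were called. With all libraries 291 of 21433 were. The share of all genes lower in that setting is not given. The members were CDKN1A at -0.19 (adjusted p = 0.00057), CDKN2A at -0.29 (adjusted p = 0.0089), CDKN2C at -0.14 (adjusted p = 0.0055), CDKN2D at -0.21 (adjusted p = 0.043) and CDKN1B. The direction of CDKN1A in SEMK2 is thus opposite to that in MV4;11 in every treated library relative to the control mean. The difference between the lines was not tested, and the SEMK2 time is not given.

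Guides against ENL gave the same pair of changes in MV4;11. CDKN1B read 94 and 86.4 CPM with the control guide, 62.1 and 58.2 CPM with guide 1, and 66.6 and 58.3 CPM with guide 2. CDKN1A read 193 and 190 CPM with the control guide, 283 and 268 CPM with guide 1, and 264 and 275 CPM with guide 2. All 4 ENL libraries lay on 1 side of both controls for each gene. Over both guides CDKN1B was at -0.56 (SE 0.0685, adjusted p = 0.00031) and CDKN1A at 0.51 (SE 0.0599, adjusted p = 0.00024), 2 of 8 members called where 10.3% of all genes were.

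Each guide alone called the same pair: 2 of 8 for guide 1 (7.48% of all genes; CDKN1B -0.59, CDKN1A 0.52) and 2 of 8 for guide 2 (4.94%; CDKN1B -0.53, CDKN1A 0.49). For guide 2 the CDKN1B call rests on its replicate 2, without which it was at -0.43 (adjusted p = 0.061). Between the guides 0 of 8 members were called (0% of all genes; 0 of 8 had an unadjusted p under 0.05, and DESeq2 called 0). MLLT1 itself was at -0.57 with guide 2 against guide 1 and was not called (adjusted p = 0.086). The remaining members were not called. CDKN3 read 34.5 and 41.4 CPM with the control guide and 31.1 to 34.5 CPM with the ENL guides (-0.22, 95% interval -0.41 to -0.04, adjusted p = 0.11), and was called without control replicate 1 (-0.35, adjusted p = 0.015). CDKN2C was at -0.15 (adjusted p = 0.14). CDKN1C, on 11 to 24 counts per library, was at 0.45 with an interval from -0.47 to 1.36, so a change of the size seen with MS41 at 6 h (1.18) was within what these libraries allow.

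In cells from mice CDKN1B was lower in every MS41 library but was not called. It read 86.9, 107 and 112 CPM with vehicle and 64.6, 53.8 and 51.5 CPM with MS41, without overlap (log2 fold change -0.85, SE 0.112, 95% interval -1.10 to -0.60, adjusted p = 0.054). In this fit, which has a term for replicate number, 0 of 8 members and 7 genes in all (0.0328%) were called; 3 of 8 members had an unadjusted p under 0.05, and DESeq2 called 0. Without that term CDKN1B was called (adjusted p = 0.036). That fit takes the libraries as independent, which values adjusted by replicate number are not, so its p-value cannot carry a call. With the term, CDKN1B was called without vehicle replicate 1 (-1.05, adjusted p = 3e-06) or MS41 replicate 1 (-1.05, adjusted p = 1.6e-06). The term absorbs the partner of the library left out, so both settings rest on the same remaining pairs and are not separate results. Both also have fewer residual degrees of freedom than the 2 of the full fit. In all, 4 of 13 alternatives called CDKN1B. Its log2 fold change ran from -1.05 to -0.71 over them, so the direction held. The adjusted p ran from 9.4e-29 (edgeR with no filter on low counts) to 0.43, so the call depends on the setting. CDKN1A read 65.8, 45.3 and 62.4 CPM with vehicle and 43.1, 63.2 and 47.2 CPM with MS41, which overlap (-0.18, 95% interval -0.65 to 0.29, adjusted p = 0.87). Without vehicle replicate 2, CDKN1A was called lower (-0.51, adjusted p = 0.047), the 1 of 13 alternatives that called it. CDKN2C was at -0.26 (95% interval -0.45 to -0.07, adjusted p = 0.58), CDKN2A at -0.17, and CDKN2B, CDKN2D and CDKN3 within 0.06 of no change. By replicate number, CDKN1A was lower with MS41 for replicates 1 and 3 and higher for replicate 2 (45.3 to 63.2 CPM). Its interval rests on 2 residual degrees of freedom and on values that look adjusted by replicate number. It therefore cannot decide whether CDKN1A rose as in MV4;11 culture at 24 h (0.55), and dose and time in mice are not given.

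**Figure D4:**
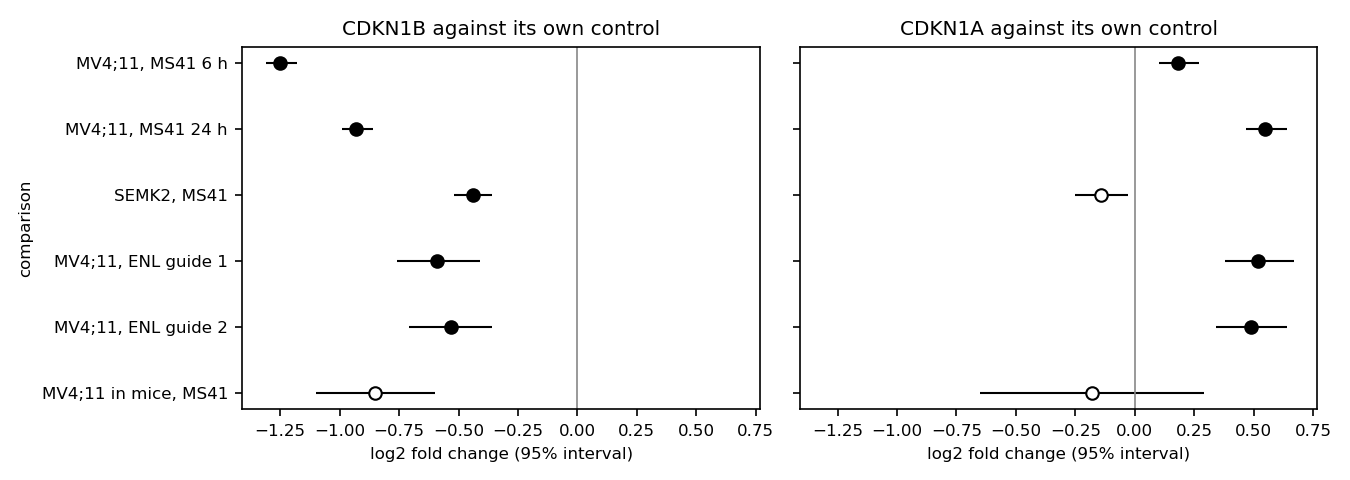
log2 fold change with 95% interval of CDKN1B (left) and CDKN1A (right) in 6 comparisons, each against its own control (filled where called). CDKN1B lies between -0.44 and -1.25 in every row, open for mice (adjusted p = 0.054); CDKN1A lies above 0 in the MV4;11 culture rows and below 0, open, in SEMK2 (-0.14) and in mice (-0.18).

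The partners of the CDK inhibitors were read from gene lists, given here as counts and medians without a test of the list. Over all genes, 26% were called with MS41 at 6 h (12.2% higher, 13.8% lower) and 44.3% at 24 h (21.4% higher, 22.9% lower), with a median of 0.02 at both times, and 10.3% were called with the ENL guides. At 6 h with MS41, 25 of 30 S phase genes that E2F drives were higher and 1 lower (median 0.19). At 24 h, 1 was higher and 23 lower (median -0.25), with the replication factors MCM10 at -0.51 and MCM6 at -0.46. The effect at 24 h was lower than that at 6 h for 30 of 30 (median difference -0.38). In DMSO itself, 28 of these 30 were higher at 24 h than at 6 h (median 0.32). Of 20 cyclin and CDK genes, 4 were higher and 11 lower at 24 h, among them the phosphatase CDC25A (-0.64) and the INK4 targets CDK4 (-0.48) and CDK6 (-0.38). Of 19 genes of the RB and E2F group, 6 were higher and 8 lower, with RB1 at 0.58 and the E2F partner TFDP1 at -0.50. Mitosis genes were split, 11 of 30 higher and 11 lower. With the ENL guides, 9 of 30 S phase genes were lower and 0 higher, and 6 of 20 cyclin and CDK genes were lower, CDC25A (-0.39) and CDK6 (-0.30) again among them. In SEMK2, where 1.36% of all genes were called (291, but 2986 without DMSO replicate 3), 0 of the 30 S phase and 0 of the 20 cyclin and CDK genes were called by edgeR, a share near that of all genes.

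Known regulators of the members were read against the same shares of all genes. MYC, a repressor of CDKN1A, CDKN2B and CDKN1B in many cells, was at -1.23 at 6 h and -0.95 at 24 h with MS41 in MV4;11. In SEMK2 it averaged 330 CPM in DMSO and 301 CPM with MS41. It averaged 553 CPM with the control guide and 462 and 480 CPM with ENL guides 1 and 2. In cells from mice it averaged 63.2 CPM with vehicle and 39.3 CPM with MS41. The part of MYC in the changes of the members was not tested. Of 27 tested p53 targets (CDKN1A not counted), 9 were higher and 5 lower at 6 h, and 14 higher and 5 lower at 24 h (median 0.12, against 0.02 for all genes). The genes called lower were thus a share close to that of all genes (13.8% at 6 h, 22.9% at 24 h). The antiproliferative factor BTG2 (0.99) and TP53INP1 (0.99) rose at 24 h, while TRIAP1 fell by 0.56 on the log2 scale. With the ENL guides 7 of 27 were higher and 0 lower, TP53INP1 (0.60) and PLK2 (0.45) among them. Of 14 FOXO targets (CDKN1B not counted), 8 were higher and 2 lower at 6 h and 11 higher and 3 lower at 24 h (median 0.95), with CCNG2 at 1.31 and TXNIP at 1.11. Of the members named above as FOXO targets, CDKN1B was lower in those libraries and CDKN1C higher (1.18 at 6 h and 1.89 at 24 h). The part of FOXO factors in these changes was not tested. A list drawn up for the turnover of p27 held 13 genes, CUL4A, DTL and FBXO31 included. With MS41 at 6 h, 1 was higher (DTL at 0.33) and 5 lower. At 24 h, 10 were lower and 0 higher, with SKP2, the subunit that recognises p27, at -0.50 and CUL1 at -0.30. With PFI-6 at 24 h, where 12.4% of all genes were called, 0 of 13 turnover genes, 6 of 14 FOXO targets (all higher) and 9 of 27 p53 targets (6 higher) were called. Of 16 tested targets of MLL fusions, 14 were lower and 1 higher at 6 h, with HOXA9 at -1.59.

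The fall of CDKN1B was looked at in its neighbourhood. Of 15 tested genes starting within 250 kb of it, 2 were higher and 3 lower with MS41 at 6 h, a share near the 26% of all genes called. The genes closest to CDKN1B are described for their position alone. APOLD1, a protein-coding gene downstream, starting 10.9 kb from the start of CDKN1B, went from 30.6 to 21.5 CPM (-0.51, SE 0.048, adjusted p = 6.8e-12). It was at -0.46 at 24 h (adjusted p = 2e-11) and at -0.59 with the ENL guides (adjusted p = 0.00025), but not called in SEMK2 (-0.23, adjusted p = 0.078) or with PFI-6 at 6 h (-0.06). AC008115.3, a sense-intronic transcript annotated within CDKN1B, went from 3.14 to 1.04 CPM at 6 h (-1.61, SE 0.14, adjusted p = 2.5e-12), and in SEMK2 from 4.03 to 1.84 CPM (-1.13, adjusted p = 0.00027). It lies on the strand of CDKN1B and shares 0 exon bases with it. Its reads cannot be told from intron reads of CDKN1B, so this member of the 3 called lower may not be a separate gene reading. Upstream, CREBL2 (0.30, adjusted p = 5e-07) and DUSP16 (0.53, adjusted p = 0.00027) were higher at 6 h. AC007688.1 at 135.9 kb was the other gene called lower (-0.45, adjusted p = 0.012), and was also lower with PFI-6 at 6 h (-0.56, adjusted p = 0.025).

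Around CDKN1A 7 genes were tested, of which 2 were higher and 3 lower at 6 h, all within 0.23 of no change among those called. RAB44, which starts 21.4 kb from CDKN1A, was at -0.19 at 6 h and -0.26 at 24 h, against 0.18 and 0.55 for CDKN1A. Against the 26% of all genes called at 6 h, the other neighbourhoods had 0 of 9 called around CDKN1C, 1 of 9 around CDKN2A and around CDKN2B (which share neighbours), 1 of 1 around CDKN2C, 5 of 16 around CDKN2D and 1 of 3 around CDKN3.

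**Figure D5:**
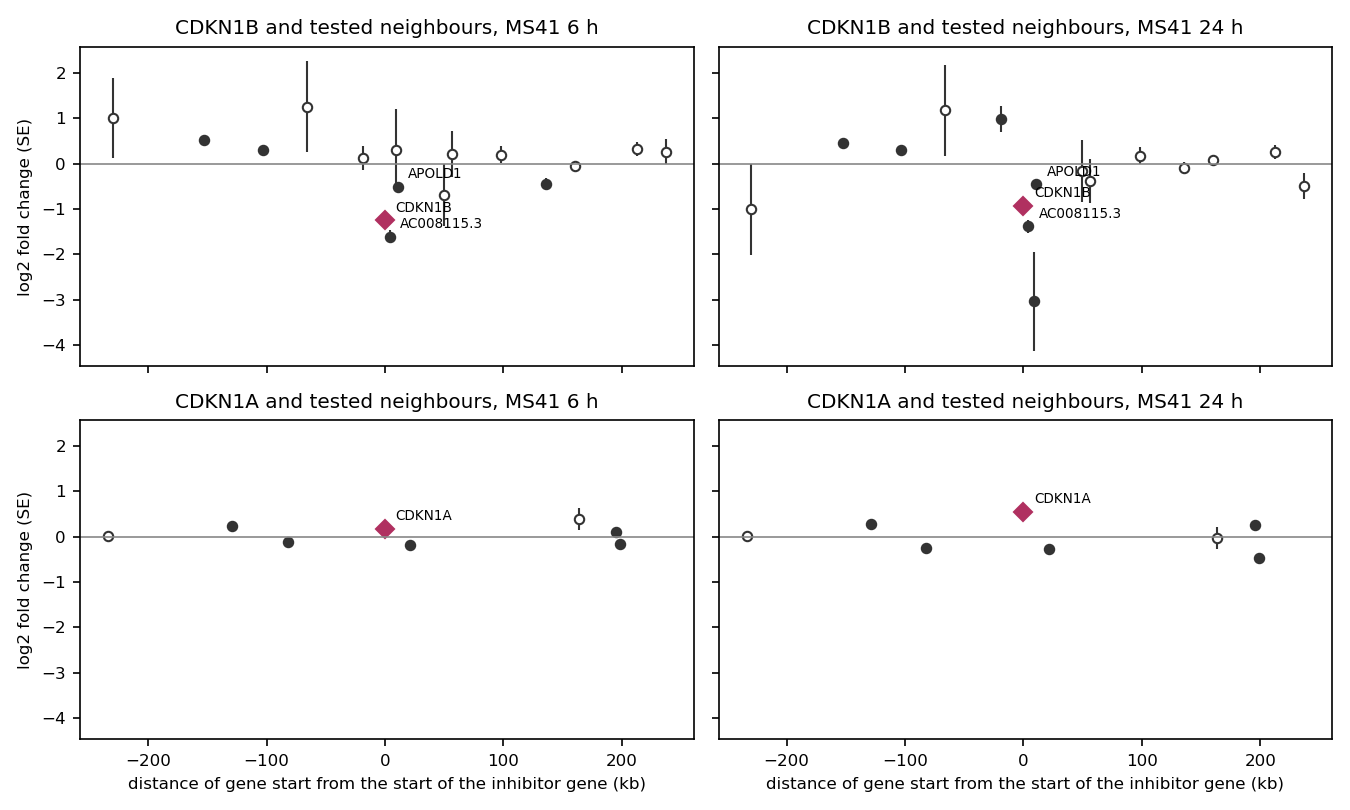
log2 fold change (bars, SE) of tested genes by distance of their start from the start of CDKN1B (top) or CDKN1A (bottom), with MS41 at 6 h (left) and 24 h (right); diamonds are the inhibitor genes, filled symbols were called. APOLD1 and AC008115.3 lie below 0 next to CDKN1B at both times, while the genes around CDKN1A scatter on either side of 0.

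The genes whose mean levels ran most like each member over the 8 MV4;11 compound groups were taken from 9251 genes by Pearson's r. These are descriptions over groups that share a culture, and carry no p. For CDKN1B they were ERLIN1 (0.997) and the T-cell receptor gamma constant genes TRGC1 (0.995) and TRGC2 (0.993). For CDKN1A they were ATP10A (0.99), DOK2 (0.988) and UBALD2 (0.985). CDKN2C ran most like MLKL (0.992), CASP1 (0.986) and NCOA7 (0.985), and CDKN2A like TBC1D20 (0.971), CENPBD1 (0.967) and GPR132 (0.963). CDKN3 ran most like NQO1 (0.99), RBM3 (0.988) and PDIA3P1 (0.988).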

How the data were processed

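Per the submitters' processing notes, the tools were HTSeq 0.11.3, HISAT2 2.1.0 and CASAVA 1.8, with build hg38; counting settings, strand included, are not given in the sources used here. The authors deposited whole-number counts per gene for guide, SEMK2 and MV4;11 compound libraries. The deposited in vivo values were handled like estimated counts, since they look adjusted by replicate number before deposit, a step read from the values and stated in no label: the mean of a vehicle and MS41 pair varied by a median SD of 0.00227 (log2) over 14669 genes, against 0.0399 to 0.0631 for other matchings. That fit therefore has a replicate term, and deviations within pairs correlated at -0.99 to -0.98 there. The other fits have no such term.

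Each table was filtered (filterByExpr), scaled with TMM and fitted with the robust quasi-likelihood test of edgeR 4.0.16 over 22711 (MV4;11 compounds, 24 libraries in 1 fit), 21433 (SEMK2), 17984 (guides) and 21337 genes (in vivo); residual degrees of freedom were 16, 4, 3 and 2. P-values were adjusted by Benjamini-Hochberg over all genes of a comparison, and called means below 0.05. The scripts were tested on simulated data. Alternatives were DESeq2 1.42.0, RLE factors, other filters (none; 50 counts), a GC correction, the replicate term and leaving out each library. Levels are CPM after TMM, with exon lengths and GC from GENCODE 29. Promoter windows are from RefSeq (GRCh38.p14); 7 of 8 members had an entry. R 4.3.3, Python 3.11.15 and matplotlib 3.10.9 were used.

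The members and gene lists were chosen with earlier results of these data known. Named list genes are among the 4 called genes of largest change per list with an average log2 CPM of at least 3; like-pattern genes are the 3 of highest r per member of that level; neighbours start within 250 kb. Separate cultures or animals are not named, so p-values measure the spread between these libraries, which may be technical.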

Additional observations from a re-analysis of the deposited data

Results flagged for a closer look

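The effect of MS41 in MV4;11 differed between 24 and 6 h, by the interaction term of edgeR, for 4 members: the difference of the log2 fold changes was 0.37 for CDKN1A, 0.32 for CDKN1B, 0.19 for CDKN2A and 0.19 for CDKN2C. The first 2 kept their call under every alternative run; the last 2 lost it when single libraries were left out.

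Some members had opposite signs in different cells, in every treated library relative to its control mean. These differences between experiments were not tested. Against the rises at 24 h in MV4;11 culture, SEMK2 had CDKN1A at -0.14, CDKN2A at -0.15, CDKN2C at -0.13 and CDKN2D at -0.22. The time of the SEMK2 libraries is not given, so cell line and time cannot be told apart. With MS41 at 6 h in MV4;11, CDKN2A (0.03) and CDKN2D (0.11) were not called. The cells from mice had CDKN1C at -0.35, CDKN2A at -0.17 and CDKN2C at -0.26. Values from mice look adjusted by replicate number, so their treated libraries are not independent readings of the sign. None of the 7 values from SEMK2 and from mice passed the threshold on its own by edgeR with all libraries.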

How the results depend on the processing

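Of 2216 recomputed gene values, 2165 stayed on their side of the threshold, 28 lost a call, 23 gained one and 0 reversed. All 28 losses came from leaving out a library. CDKN1B with MS41 ranged from -1.28 to -1.22 at 6 h and from -0.97 to -0.89 at 24 h. The number of members called moved by over 1.5 times, or from 0, as follows, and the cause was not tested. With DESeq2 it was 1 for the time difference of PFI-6 (main 0) and 2 in SEMK2 (main 1). In vivo it was 1 without a filter on low counts and 1 with no replicate block (main 0). With libraries left out in turn it ranged from 2 to 4 for the time difference of MS41, from 3 to 5 for DMSO 24 h against 6 h, from 1 to 5 in SEMK2, from 1 to 3 for ENL guide 2 and from 0 to 1 in vivo. Smaller moves were a gain of CDKN2A in MS41 6 h against MS41N (4 to 5) with the GC trend removed (adjusted p = 0.0028), also with the replicate block (0.002), and with the filter of 50 counts (0.046), of CDKN3 in MS41 24 h against PFI-6 (7 to 8) under DESeq2, RLE factors and no filter, and of CDKN2B in DMSO 24 h against 6 h (5 to 6) under DESeq2 (0.045). With libraries left out, the number ranged from 3 to 4 for MS41 at 6 h, from 5 to 7 at 24 h, from 7 to 8 for MS41 24 h against PFI-6, and from 2 to 3 for both guides and for guide 1. The number of genes called in all moved by over 1.5 times in these comparisons, given as lowest to highest over all alternatives beside the main count: PFI-6 at 6 h 126 to 806 (466) and at 24 h 611 to 3436 (2806), MS41N at 6 h 12 to 182 (73) and at 24 h 0 to 83 (8), PFI-6 against MS41N 1 to 25 (3) and 0 to 189 (24), the time difference of PFI-6 7 to 200 (27), SEMK2 100 to 2986 (291), both guides 940 to 3203 (1853), guide 1 596 to 2578 (1346), guide 2 269 to 1932 (888), guide 2 against guide 1 0 to 15 (0), and in vivo 0 to 523 (7). Leaving out 1 of 2 guide libraries leaves a lone library that is assumed to vary like the others. Outside the mouse experiment, deviations of same-numbered libraries were not all correlated above 0.1 (-0.26 to 0.27 for compounds and SEMK2, -0.02 to 0.6 for guides). The replicate block changed no count of members in the culture tables (4 with MS41 at 6 h, 7 at 24 h, 1 in SEMK2, 2 with the guides). In vivo, no replicate block gave 523 genes in all, against 7. Depth limits CDKN1C, which had 10 to 37 counts per library in SEMK2 and with the guides.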

Other observations

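CDKN2B-AS1, the antisense gene that runs across CDKN2A and CDKN2B, stood at 2.89, 2.32 and 3.19 CPM with MS41 at 24 h and at 1.46, 1.53 and 1.43 CPM in DMSO. It was at 1.7, 1.61, 1.49 and 1.6 CPM with the ENL guides against 1.16 and 1.12 CPM with the control guide, and at 3.17, 3.42 and 3.17 CPM against 2.55, 2.35 and 2.56 CPM in cells from mice. The ranges of treated and control libraries do not overlap in these 3 comparisons. The share of all genes for which this holds is not given, so it describes the values only. Those from mice look adjusted by replicate number and are not independent readings. They overlap with MS41 at 6 h (1.7 to 1.92 against 1.49 to 1.71 CPM) and in SEMK2 (1.88 to 2.29 against 1.67 to 2.09 CPM). PFI-6 at 24 h (1.55 to 1.93 CPM) also lay above every DMSO library of that time, and MS41N at 24 h (1.22 to 1.42 CPM) lay below every one. No test is given, since the gene was singled out after its values were seen.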
